A study of Ovis aries with 7 samples.

Results

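PV/Th interneurons of the sheep striatum were taken as the single nuclei that carried the marker genes NXPH1, KIT, CRABP1, PTHLH and HS3ST2. Members were thus chosen by measured RNA counts. A barcode was a member when it held 4000 or more unique molecular identifiers (UMIs, the deduplicated count of captured RNA molecules), at most 7500 genes, at least 2 UMIs of the GABA-synthesis genes GAD1 and GAD2 and at least 10 UMIs summed over the 5 markers, of which at least 3 had to be detected. The marker sum also had to exceed the sum of PDE10A, RGS9 and RARB, which mark medium spiny neurons, and that of PDGFRA and VCAN, which mark oligodendrocyte precursors, while KIT, CRABP1, PTHLH and HS3ST2 together had to exceed SST, NPY and CHODL. Of 35272 barcodes, 322 met the rule (0.913%), 187 from OVT73 libraries and 135 from control libraries. PVALB, the gene of parvalbumin, was not used in the rule.

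Single-nucleus RNA sequencing had been done on frozen anterior striatum of 12 sheep at 5 years of age. OVT73 sheep are a transgenic Huntington's disease line that carries a full-length human huntingtin cDNA with an expanded polyglutamine tract behind a short upstream segment of the human HTT gene, and the controls were sheep without the transgene. The nuclei formed 7 libraries, which are the replicates here. OVT73 libraries 1, 2 and 3 and control libraries 3 and 4 each pooled nuclei of 2 sheep, whereas control libraries 1 and 2 came from 1 sheep each. The SD and the tests therefore describe the spread between libraries, not between single animals.

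The 7 libraries held between 3277 and 8815 barcodes and between 20887378 and 70473426 UMIs. OVT73 libraries 1, 2 and 3 contributed 76, 69 and 42 members, and control libraries 1 to 4 contributed 39, 25, 30 and 41. A member had a median of 15320 UMIs (range 4141 to 82415) and 4416 genes (range 2024 to 7294). The median UMI count of the members was 17800, 16070 and 15141.5 in OVT73 libraries 1 to 3 and 14520, 14328, 12022 and 14323 in control libraries 1 to 4, so that the members were more deeply sampled in every OVT73 library than in any control library. The sums per library on which levels and tests rest held 1542573, 1114498 and 724978 UMIs in OVT73 and 673331, 400367, 408202 and 699327 UMIs in controls. Pairs of libraries shared 2 to 20 barcode sequences, none of which belonged to a member.

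The marker sum ranged from 16 to 464 UMIs with a median of 82. All 5 markers were detected in 81 members, 4 of them in 150 and 3 in 91. Near the limits, 0 members held 10 to 14 marker UMIs and 5 members held fewer than 5000 UMIs, while 3 further barcodes would have qualified with 5 to 9 marker UMIs and 2 with 3000 UMIs or more but fewer than 4000. No member met the rule for medium spiny neurons, 5 also met that for cholinergic interneurons, and 1 exceeded the mitochondrial limit of 5%.

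Parvalbumin interneurons are fast-spiking inhibitory neurons of the striatum. They receive cortical input and inhibit the medium spiny projection neurons that surround them. In the forebrain they descend from progenitors of the medial ganglionic eminence that use the transcription factors NKX2-1, LHX6 and SOX6, and in mouse striatum PTHLH is shared by parvalbumin cells and by related cells with little parvalbumin. Tyrosine hydroxylase (TH) is known from another set of rodent striatal interneurons.

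The marker genes were examined first, as a description, because the rule used all 5. Levels are given as UMIs per 1000000 UMIs of the member nuclei summed in each library (CPM), as a mean over the 7 libraries for the members and pooled over libraries for the other gates, some of which held few nuclei. NXPH1 encodes neurexophilin 1, a secreted ligand of neurexins, and was detected in 321 of 322 members. Its level was 4563, 5663 and 5007 CPM in OVT73 libraries 1 to 3 and 3872, 4611, 4228 and 3884 CPM in control libraries 1 to 4, a mean of 4547 ± 640 CPM (SD, n = 7). NXPH1 was not particular to these nuclei, with 3425 CPM in nuclei gated as SST/NPY interneurons but 11.2 CPM in medium spiny neurons.

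KIT, the receptor tyrosine kinase for stem cell factor, reached 327 ± 90.9 CPM (SD, n = 7) in the members. It was listed at 0.820, 0.757 and 2.90 CPM in the SST/NPY, cholinergic and medium spiny neuron gates, where only a few UMIs stood behind each value of the smaller gates. CRABP1, a retinoic acid binding protein, reached 513 ± 159 CPM and was also present in cholinergic nuclei at 149 CPM. PTHLH, the parathyroid hormone-like peptide, reached 72.7 ± 23.9 CPM, and HS3ST2, a heparan sulfate sulfotransferase, 92.1 ± 35.6 CPM. Whereas KIT and CRABP1 were detected in 96.3% and 97.8% of the members, PTHLH was found in 57.1% and HS3ST2 in 46.0%. Both of these were detected in 85 nuclei, PTHLH without HS3ST2 in 99, HS3ST2 without PTHLH in 63 and neither in 75.

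**Figure D1:**
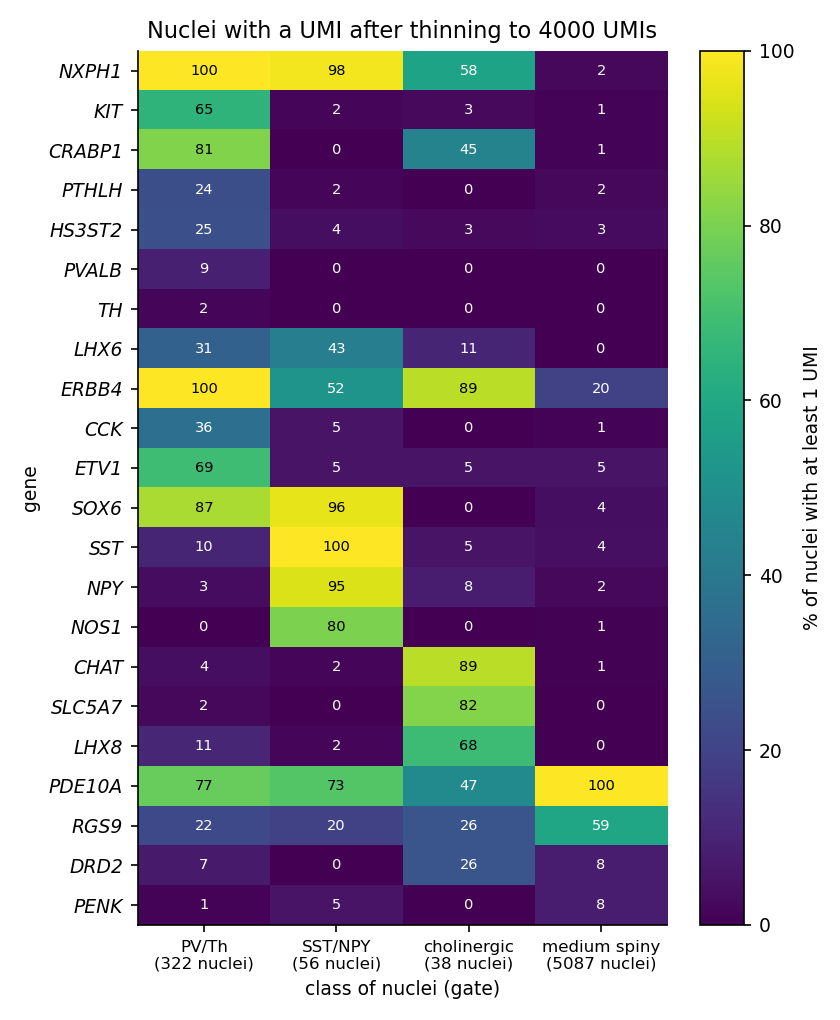
Heat map of named genes (rows) against the PV/Th, SST/NPY, cholinergic and medium spiny neuron gates (columns), with colour for the percent of nuclei that held a UMI after each nucleus was thinned to 4000 UMIs. NXPH1 was found in 99.7% of PV/Th nuclei and 2.30% of medium spiny neurons, whereas PVALB was found in 8.70% of PV/Th nuclei.

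The gene that names the class was sparse. PVALB, the calcium buffer parvalbumin, had 127 UMIs in 73 members, which is 22.7% of the nuclei. In OVT73 libraries 1 to 3 the share of nuclei with a PVALB UMI was 28.9%, 20.3% and 11.9%, and in control libraries 1 to 4 it was 38.5%, 12%, 20% and 19.5%. Control library 1 was highest, OVT73 library 3 was lowest and the groups overlapped. To set the classes side by side at equal depth, each nucleus was thinned to 4000 UMIs. PVALB was then found in 28 of 322 PV/Th nuclei (8.70%), in 4 of 5087 medium spiny neurons (0.0786%) and in no nucleus of the 56 in the SST/NPY and the 38 in the cholinergic gate. The median depth as deposited was 15320 UMIs in the members and 24014 UMIs in medium spiny neurons, the class that held fewer PVALB UMIs.

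TH and TAC3 were rarer still. TH, the rate-limiting enzyme of dopamine synthesis, had 16 UMIs in 13 members, with values of 4.54, 1.79 and 1.38 CPM in OVT73 libraries and 5.94, 2.50, 2.45 and 0 CPM in control libraries. TH and PVALB were found together in 4 nuclei. TAC3, the neurokinin B precursor that marks an interneuron type of the primate striatum, had 2 UMIs, in 2 members. TH, part of the class name, was thus detected in 4.04% of the nuclei. Among other calcium buffers, CALB1 had a mean of 4.84 CPM and CALB2 12.2 CPM, the latter against 84.5 CPM in SST/NPY nuclei.

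Transcription factors of the medial ganglionic eminence lineage were present. LHX6 was detected in 221 members (68.6%) at 88.6 ± 26.6 CPM (SD, n = 7), against 0.272 CPM in medium spiny neurons and 186 CPM in SST/NPY nuclei. NKX2-1 stood at 60.2 ± 18.7 CPM in the members and at 0.106 CPM in medium spiny neurons, while LHX8 stood at 49.4 ± 38.3 CPM and was higher in cholinergic nuclei at 349 CPM. SOX6 was at 986 ± 174 CPM in the members, below the 5261 CPM of the SST/NPY nuclei and above the 15.1 CPM of medium spiny neurons. MAF, ZEB2, ETV1 and PROX1 were higher in the members than in each of the 3 other gates, at 203, 580, 313 and 111 CPM against at most 77.1, 76.3, 15.8 and 55.8 CPM.

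Genes linked to fast spiking and to excitatory transmission followed. KCNC2, a Kv3 potassium channel that allows rapid repolarisation, was at 972 ± 140 CPM against 36.1 CPM in medium spiny neurons, although SST/NPY nuclei were higher still at 1317 CPM. KCNC1, the other Kv3 subunit of fast-spiking cells, was at 85.1 ± 10.1 CPM, and KCNS3, a silent subunit, was low at 14.4 CPM but lower in the other gates, at 1.64 CPM or less. SCN8A, a sodium channel gene, was at 236 CPM and did not stand above medium spiny neurons (353 CPM). GRIA4, an AMPA receptor subunit, was at 11057 ± 1229 CPM against 3345 CPM in medium spiny neurons, whereas GRIA2 was lower in the members, at 549 against 1339 CPM.

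ERBB4, the neuregulin receptor of forebrain interneurons, was at 13914 ± 1632 CPM (SD, n = 7) against 638 CPM in medium spiny neurons. Its ligand NRG1 went the other way, with 727 CPM in the members and 7440 CPM in medium spiny neurons, and NRG3 was at 5493 against 1688 CPM. The peptide gene CCK was at 150 ± 62.6 CPM in the members and at 10.7 CPM or less in the other gates, and 191 members held a CCK UMI. Of the perineuronal net genes, TNR was at 95.1 ± 20.04 CPM and BCAN at 27.9 ± 5.31 CPM, both above the other gates, whereas ACAN, the core proteoglycan aggrecan, had 0 UMIs among the 5563276 UMIs of the members, which allows a level of up to 0.539 CPM (3 UMIs over all members, counting error only).

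The 20 genes with the highest smallest ratio to the medium spiny neuron, SST/NPY and cholinergic gates were drawn up by the same description, with no test. The ratios were taken of summed levels after 5 CPM was added to each, which understates them for genes near 0 in the other gates, and the order depends on that addition. KIT, a gene of the rule, had a log2 ratio of 5.36 on this scale to the gate where it was highest. It was followed by the transcription factor SOX5 (4.86), KANK4 (4.73), the synaptotagmin SYT17 (4.51) and the zinc finger factor ST18 (4.43). EPB41L4A, ETV1, the nuclear receptor NR5A2, the hyaluronan-binding CEMIP and the transcription factor NFIX came next, with ratios from 4.17 down to 3.56. OSBPL3, ST8SIA2, CCK, IGFBP4, LRIG3, CALCR, ADCY8, COL15A1 and PTHLH, the last a gene of the rule, were also among them, down to 2.95. SOX5 was detected in 90.4% of the members and EPB41L4A in 98.4%, but NR5A2 in 18.9% and CALCR, the calcitonin receptor, in 9.63%, so that not all of the leading genes described the whole class.

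Markers of other cells were present at different levels. The medium spiny neuron markers, led by PDE10A (524 CPM over all members, 3148 CPM in medium spiny neurons), summed to 915 ± 44.2 CPM in OVT73 (n = 3) and 915 ± 87.1 CPM in control libraries (n = 4). The oligodendrocyte precursor markers summed to 1020 ± 177 and 960 ± 176 CPM, of which PCDH15 made up 932 CPM and PDGFRA 4.49 CPM, and the neuroblast-like markers DCX and ADARB2 to 183 ± 45.8 and 148 ± 66.7 CPM. The groups overlapped for each of these lists, and their part in the results below was not tested. The oligodendrocyte markers MOG and MOBP summed to 44.1, 29.6 and 9.66 CPM in OVT73 libraries 1 to 3 and to 34.2, 19.98, 85.7 and 87.2 CPM in control libraries 1 to 4, with MOBP the more abundant (26.6 CPM). The groups overlapped (two-sided exact permutation test, p = 0.257). The 4 astrocyte markers summed to 88.2, 84.3 and 75.9 CPM in OVT73 and 75.7, 37.5, 49.0 and 37.2 CPM in controls and were higher in every OVT73 library (p = 0.0571, same exact test, not adjusted). SLC1A2 made up most of that sum (57.2 CPM). Cholinergic markers, led by LHX8, were at 93.0 ± 64.7 CPM in OVT73 (n = 3) and 113 ± 109 CPM in controls (n = 4), with SLC18A3 at 0. SLC17A7 and CX3CR1, the defining genes of cortical glutamatergic neurons and microglia, were also at 0. SST was found in 10.2% and NPY in 3.42% of the members at 4000 UMIs, where medium spiny neurons held 4.07% and 2.10%.

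The members were then divided by their own variable genes, centred per library, into 7 clusters. The genes that separate the clusters also made them and are given without a test, and no cluster was given a cell type name. Cluster 1 (86 nuclei) was led by ABI3BP, HPCAL1 and PPP1R1C with small differences, ABI3BP being at 73.2 CPM against 24.3 CPM in the rest. Cluster 2 (66 nuclei) was led by CCK, at 485 against 109 CPM, and by UQCR10 and PTMA, and had the fewest UMIs, with a median of 11806.5. Cluster 3 (55 nuclei) was led by NR5A2 (361 against 16.0 CPM), the adhesion receptor ADGRG6 (153 against 9.22 CPM), ANKFN1 (495 against 66.5 CPM) and the axon guidance gene SLIT2, and it held 83.3% of all NR5A2 UMIs of the class.

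Several receptor genes marked cluster 4 (43 nuclei). It was led by CALCR, at 867 CPM against 6.03 CPM, with FSTL5 at 1620 against 37.2 CPM. Also among its leading genes were the serotonin receptor gene HTR2C (704 against 20.9 CPM), the mu opioid receptor gene OPRM1 (358 against 25.5 CPM) and CALB2 (86.5 against 3.02 CPM). HTR2C and FSTL5 were each detected in 97.7% of its nuclei and CALCR in 48.8%. PVALB was at 0 of 43 nuclei, PTHLH was at 8.48 CPM (5 UMIs), and CCK and MAF were at 3.39 and 18.7 CPM. LHX6 was at 86.5 CPM, KIT at 219 CPM and CRABP1 at 673 CPM in the same nuclei.

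Cluster 5 (36 nuclei) was led by MOBP (171 against 6.75 CPM), RNF220 and PLA2R1, of which MOBP is a gene of myelinating oligodendrocytes. Of its 36 nuclei, 18 held 3 or more UMIs of MOG and MOBP. The oligodendrocyte precursor gene VCAN was also among its leading genes (215 against 15.5 CPM). PDGFRA, the other precursor gene of the rule, was at 31.2 CPM (21 UMIs), against at most 2.26 CPM in any other cluster. Cluster 6 (21 nuclei, median 27519 UMIs) was led by COL15A1 (157 against 45.6 CPM) and TMEM132C. Cluster 7 (15 nuclei, median 26731 UMIs) was led by the transcription factor PBX3 (1240 against 9.58 CPM), SCGN and FSHR and also held SLC5A7 (270 CPM) and CHAT (237 CPM), the choline transporter and the acetylcholine-synthesising enzyme. All 5 members that met the cholinergic rule were in cluster 7, where NXPH1 (1482 CPM), KIT (56.1 CPM) and ERBB4 (5602 CPM) were at their lowest and PVALB was found in 1 nucleus.

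**Figure D2:**
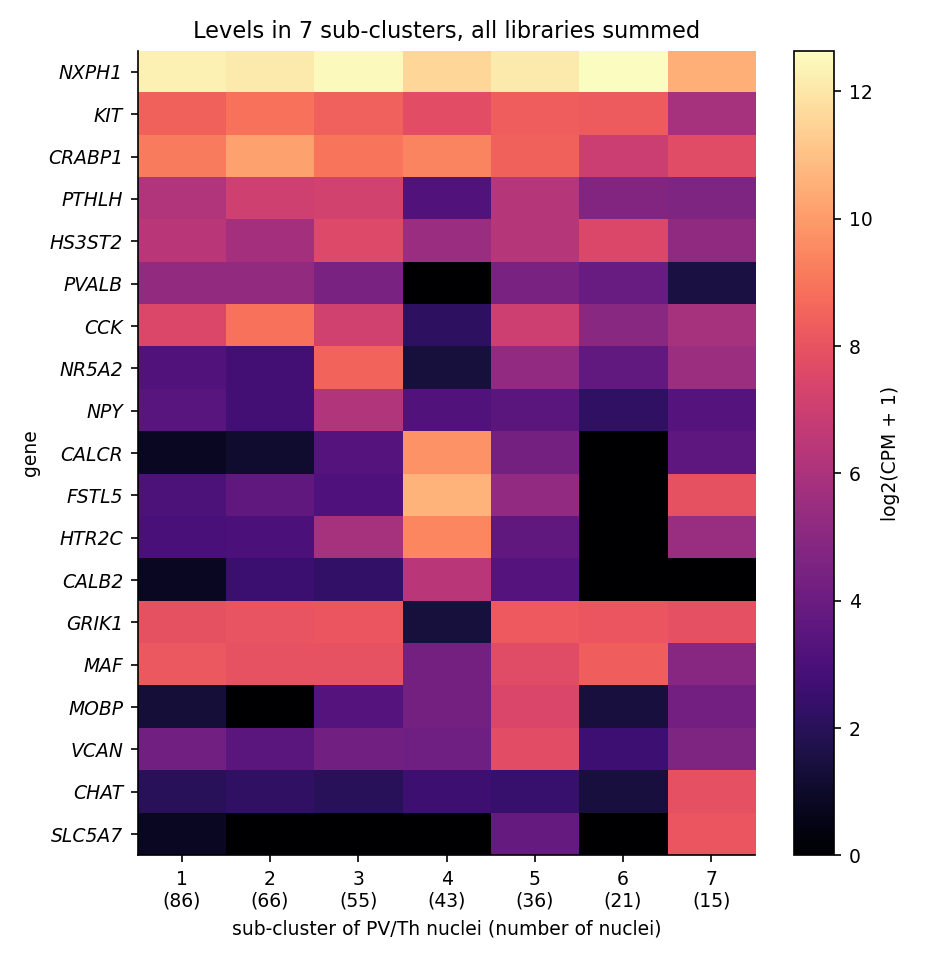
Heat map of marker and leading genes (rows) across the 7 clusters of PV/Th nuclei (columns, with their numbers of nuclei), coloured by level in CPM on a log scale. CALCR and FSTL5 stood out in cluster 4 (867 and 1620 CPM), MOBP in cluster 5 (171 CPM) and CHAT in cluster 7 (237 CPM).

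Pairs of genes within single nuclei were described at 4000 UMIs per nucleus and without a test, since the nuclei share 7 libraries. CCK was found in 41 of 77 nuclei with PTHLH (53.2%) and in 76 of 245 without it (31.0%). CALCR was found in 7 of 17 nuclei with CALB2 (41.2%) and in 20 of 305 without it (6.56%). LHX6, in contrast, was found in 25 of the 77 nuclei with PTHLH (32.5%) and in 75 of the 245 without it (30.6%).

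The proportions of the clusters were compared between OVT73 and control libraries with exact permutations (two-sided) of the group labels over the 35 ways to pick 3 of the 7 libraries, which can give no p below 0.0286. Cluster 5, the one with the oligodendrocyte genes, took up 11.8%, 5.80% and 9.52% of the members in OVT73 libraries and 12.8%, 12%, 16.7% and 14.6% in control libraries. It was lower in every OVT73 library, with means of 9.05 ± 3.05% (SD, n = 3) and 14.03 ± 2.07% (SD, n = 4), exact p = 0.0286, but did not pass adjustment over the 7 clusters (adjusted p = 0.2). These are 36 nuclei in all. Cluster 3 averaged 19.9 ± 3.45% in OVT73 and 13.5 ± 5.76% in controls (exact p = 0.171), with overlap of the groups. The other 5 clusters overlapped too, among them cluster 4 at 15.0 ± 3.55% and 11.6 ± 8.30% (exact p = 0.543).

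**Figure D3:**
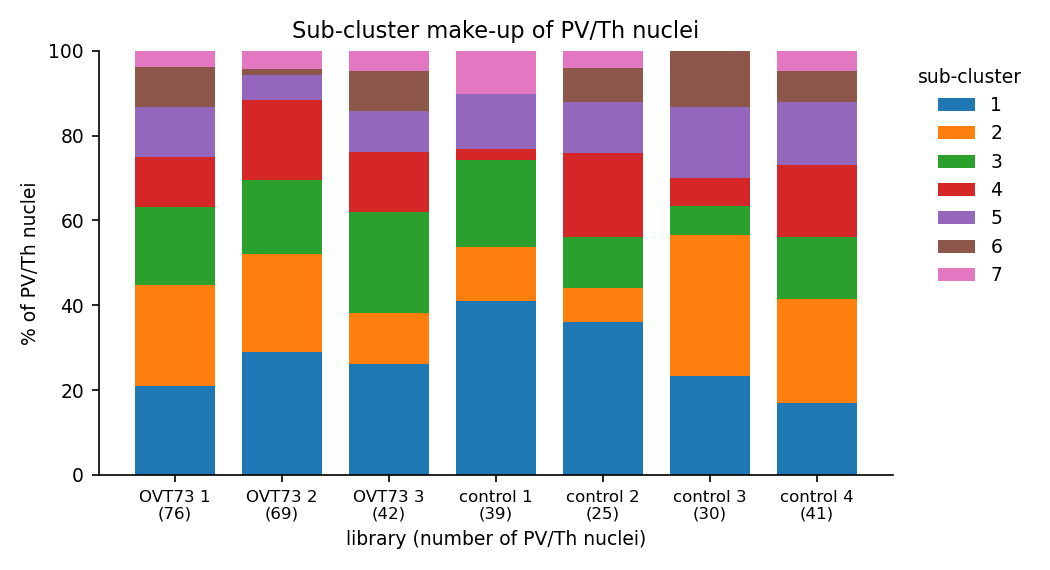
Stacked bars of the percent of PV/Th nuclei in each of the 7 clusters (vertical axis, 0 to 100%) in each of the 7 libraries (horizontal axis, with the number of nuclei). Cluster 5 took up 5.80 to 11.8% in OVT73 libraries and 12 to 16.7% in control libraries, and control library 1 had no nucleus in cluster 6 and control library 3 none in cluster 7.

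Which genes vary with PVALB inside the class was asked by splitting the members on a PVALB UMI after thinning to 4000 UMIs. OVT73 libraries 1 and 2 and control library 1 had at least 5 nuclei on each side, with 8, 5 and 6 nuclei with PVALB against 68, 64 and 33 without. In edgeR's quasi-likelihood test on the sums with the library as a block, 4 of 1764 genes passed a Benjamini-Hochberg adjusted p of 0.05 (0.227% of those tested), all lower in the nuclei with PVALB. With 19 nuclei on the PVALB side, the counts behind these values are small. Genes with few UMIs on that side could enter the test only through the other side. The shared direction is therefore not read as a result.

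The genes were ROBO2 (13 UMIs in 76000 with PVALB against 449 in 660000 without), an axon guidance receptor, PHACTR1 (13 against 431 UMIs), a phosphatase and actin regulator, RGS6 (3 against 203 UMIs), a regulator of G protein signalling, and CACNA2D3 (1 against 302 UMIs), a calcium channel subunit. ROBO2 was at 219, 0 and 250 CPM with PVALB in OVT73 library 1, OVT73 library 2 and control library 1, and at 662, 449 and 1167 CPM without. This is a log2 fold change of -2.21 (SE 0.375, adjusted p = 0.0123 by edgeR). PHACTR1 was at 125, 200 and 208 CPM with PVALB and at 412, 781 and 902 CPM without, a log2 fold change of -1.98 (SE 0.326, adjusted p = 0.0123 by edgeR). Both genes were lower on the PVALB side in all 3 libraries. For CACNA2D3 (adjusted p = 0.00211) the pooled level without PVALB was 34.8 times that with PVALB, with an exact 95% counting interval of 6.19 to 1378. For RGS6 (adjusted p = 0.0231) it was 7.79 times, with an interval of 2.63 to 38.1. By library, the PVALB side held 1, 0 and 0 UMIs of CACNA2D3, 1, 0 and 2 UMIs of RGS6 and 7, 0 and 6 UMIs of ROBO2. CACNA2D3 and RGS6 entered the test only through the side without PVALB. ROBO2, with 0 UMIs in OVT73 library 2, would not have entered it by the PVALB side alone. The calls of CACNA2D3, RGS6 and ROBO2 are therefore a description and no conclusion is drawn from them.

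These 4 genes were also uneven across the clusters. ROBO2, RGS6, CACNA2D3 and PHACTR1 were all highest in cluster 7, at 6293, 3521, 5957 and 4696 CPM. The first 3 were next highest in cluster 4, at 1627, 768 and 1723 CPM, and PHACTR1 in cluster 5, at 423 CPM. Clusters 4 and 7 together held 1 nucleus with PVALB of the 58 in them. The part of cluster membership in the PVALB split was not tested. When the library block was left out, CACNA2D3 alone passed. Without OVT73 library 1, 7 genes passed (2 higher and 5 lower with PVALB), with ROBO2, CACNA2D3 and PHACTR1 among them and RGS6 not.

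The abundance of the class was compared next. PV/Th nuclei made up 0.871%, 1.29% and 0.967% of the nuclei that passed the quality limits in OVT73 libraries 1 to 3 and 1.20%, 0.613%, 0.708% and 0.867% in control libraries 1 to 4. The exact 95% binomial intervals, which cover counting error only, ran from 0.687% to 1.09% in the library with the most members and from 0.397% to 0.903% in that with the fewest. Control library 1 lay within the OVT73 range and the groups overlapped, with means of 1.04 ± 0.218% (SD, n = 3) and 0.847 ± 0.258% (SD, n = 4) and a two-sided exact permutation p of 0.343. Without control library 1 the shares no longer overlapped (exact p = 0.1, the smallest this two-sided test can give for 3 against 3 libraries). The difference of 0.195 percentage points became 0.313 without control library 1, 0.117 without control library 2 and 0.0720 without OVT73 library 2. With the rules applied to nuclei thinned to 4000 UMIs it was 0.0657. As a share of barcodes with GAD1 or GAD2 UMIs, the members made up 5.56 ± 0.291% in OVT73 (n = 3) and 5.57 ± 0.545% in control libraries (n = 4), a difference of -0.00922 percentage points.

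Set against the projection neurons, there were 6.05, 6.28 and 6.57 PV/Th nuclei per 100 medium spiny neuron nuclei in OVT73 libraries and 7.002, 6.51, 5.64 and 6.61 in control libraries. The means were 6.30 ± 0.262 (SD, n = 3) and 6.44 ± 0.575 (SD, n = 4) per 100, and the groups overlapped (exact permutation p = 0.714). The difference of -0.14 became 0.0466 without control library 1, -0.408 without control library 3, -0.28 without OVT73 library 3, -0.083 without control library 4 and -0.015 without OVT73 library 1.

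**Figure D4:**
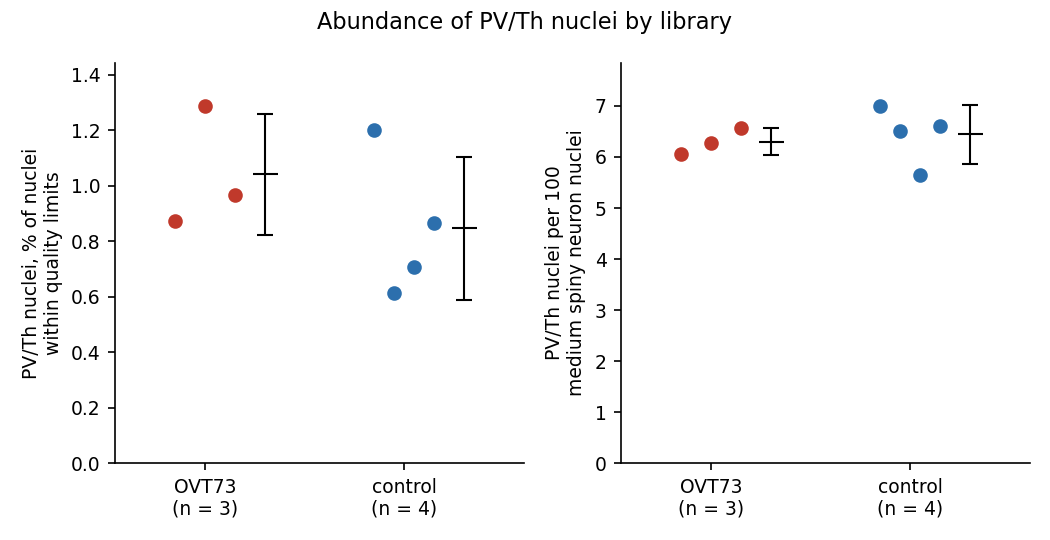
PV/Th nuclei as a percent of nuclei that passed the quality limits (left) and per 100 medium spiny neuron nuclei (right) in each library, with points for libraries and the mean and SD of each group. OVT73 and control libraries overlapped in both panels, with means of 1.04 and 0.847% and of 6.30 and 6.44 per 100.

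Gene levels in PV/Th nuclei were compared between OVT73 and control libraries on UMIs summed per library with edgeR's quasi-likelihood test. Of 7673 genes tested, 0 (0%) passed a Benjamini-Hochberg adjusted p of 0.05. The smallest adjusted p was 0.984, and 308 genes (4.01%) had an unadjusted p under 0.05, 117 higher (1.52%) and 191 lower (2.49%) in OVT73. DESeq2 also called 0 genes, with 230 of 17896 genes at an unadjusted p under 0.05, a larger set than edgeR's since it was not filtered in the same way. The groups did not overlap for 418 genes (5.45%), 202 of them higher (2.63%) and 216 lower (2.82%) in OVT73. Without a filter on low counts 10 genes passed, 1 of them a gene of the rule, and with equal numbers of nuclei from every library 4 did. With each nucleus thinned to 4000 UMIs, which evens out the deeper sampling of OVT73 members, 0 of 3451 genes passed. The part of the astrocyte and oligodendrocyte marker UMIs described above in single genes was not tested. The values below are given as measurements, and none of them is a call.

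The genes with the smallest p among those whose groups did not overlap were named by rule, 8 in each direction, so that their lack of overlap is no further evidence. Levels are in normalised CPM, that is, with edgeR's scaling factors. CCDC178 was at 34.1, 35.4 and 44.4 in OVT73 libraries 1 to 3 and at 11.9, 5.23, 7.28 and 16.0 in control libraries 1 to 4. edgeR gave a log2 fold change of 1.77 (SE 0.347) and an adjusted p of 0.984. It rested on 142 UMIs in 52 nuclei, of which 16 came from 1 nucleus.

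CRELD1, which encodes a membrane protein with EGF-like domains, was at 11.4, 11.8 and 12.9 normalised CPM in OVT73 libraries and at 26.8, 34.0, 31.5 and 21.8 in control libraries, a log2 fold change of -1.22 (SE 0.327, edgeR adjusted p = 0.998). CCNT1, the cyclin of the elongation factor P-TEFb, was at 57.4, 57.0 and 55.9 in OVT73 and 92.1, 78.4, 84.9 and 84.2 in control libraries, a log2 fold change of -0.58 (SE 0.184). The OVT73 libraries lay close together for both genes. TFB2M, a mitochondrial transcription factor, had means of 19.98 ± 2.80 and 38.9 ± 6.30 normalised CPM (SD, n = 3 and 4). RASSF1, TAFA1, CCDC12, CCDC28B and CCDC152 completed the lower side with log2 fold changes between -1.54 and -0.64.

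On the higher side, TOX, a nuclear factor, was at 320 ± 56.8 normalised CPM in OVT73 (n = 3) and 211 ± 11.6 in control libraries (n = 4). ANO6, a phospholipid scramblase, was at 46.2 ± 8.64 and 23.9 ± 5.40. HS3ST2 was at 106.9, 112 and 166 in OVT73 and at 69.8, 49.7, 77.6 and 84.2 in control libraries, but as it is a gene of the rule no test is given for it. The summed rule markers were likewise higher in every OVT73 library, at 5850, 6594 and 5997 CPM against 4986, 5423, 5363 and 4652 CPM. LRRC9 and BCL11A were also on this side.

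ANKFN1 and BCL11A were also genes of cluster 3, which held 62.3% and 47.2% of their UMIs in the class against 18.2% of all UMIs. ANKFN1 was at 154, 231 and 188 normalised CPM in OVT73 and 106, 112, 38.8 and 110 in control libraries. Inside cluster 3 it was at 424, 652 and 534 CPM in OVT73 and 444, 450, 279 and 501 CPM in control libraries, and the groups overlapped. Outside cluster 3 it was at 88.6 ± 26.9 CPM in OVT73 (n = 3) and 31.7 ± 22.7 CPM in controls (n = 4), without overlap. BCL11A was at 79.6 ± 66.9 CPM in OVT73 and 94.1 ± 49.3 CPM in controls inside cluster 3, and at 29.2 ± 11.2 and 7.97 ± 10.4 CPM outside it (n = 3 and 4), with overlap in both. Its log2 fold change of 1.15 was 1.98 without cluster 3 and 0.57 in clusters 1, 2, 3 and 6. On the lower side, 38.0% of the TAFA1 UMIs and 29.4% of the CCDC152 UMIs came from cluster 5, which held 12.1% of all UMIs. In clusters 1, 2, 3 and 6 alone, the log2 fold change of TAFA1 went from -1.02 to -0.66 and that of CCDC152 from -0.64 to -0.35. CCDC152 was at -0.39 without nuclei with 3 or more UMIs of MOG and MOBP. With cluster 3 left out, and with the 25 nuclei that held 3 or more UMIs of MOG and MOBP left out, 0 genes passed the adjusted test in either case.

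**Figure D5:**
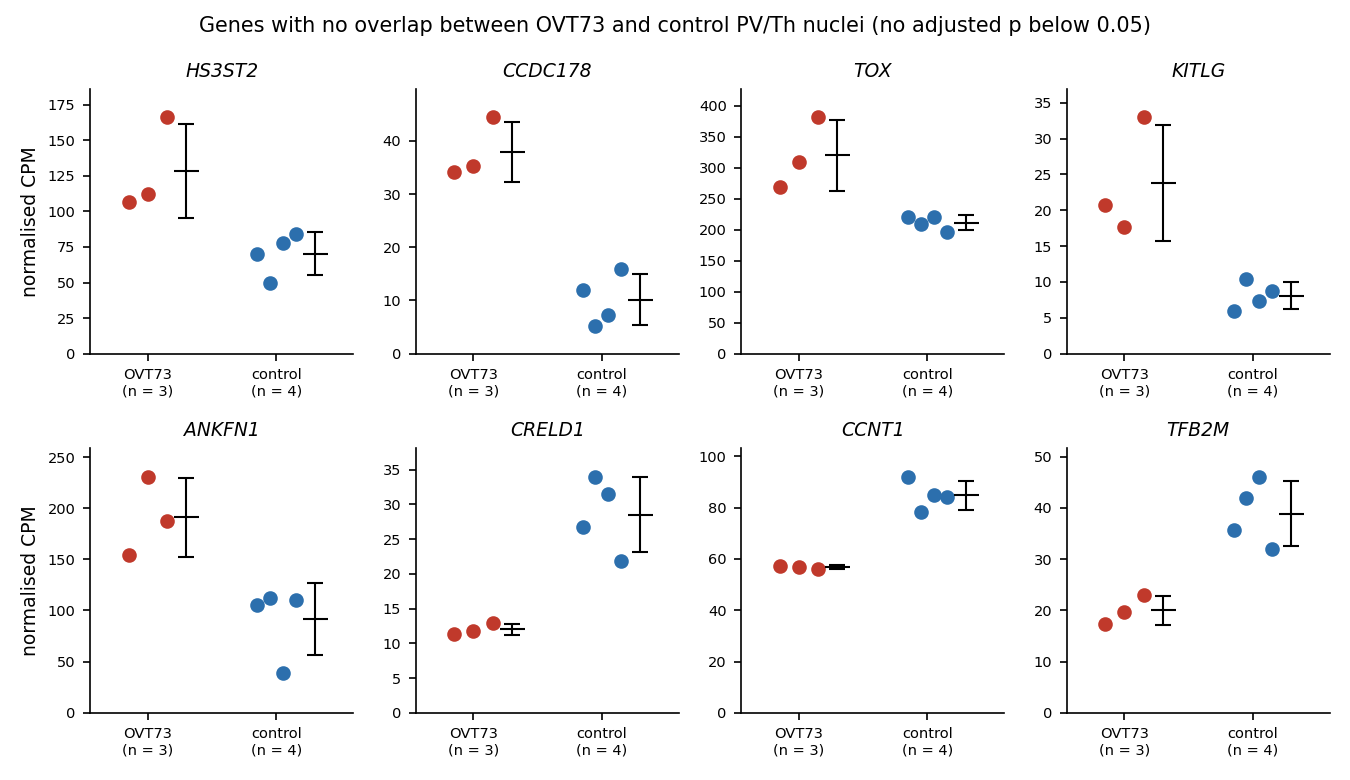
Normalised CPM of named genes in PV/Th nuclei by library, with points for the 3 OVT73 and 4 control libraries and the mean and SD of each group. CCDC178 lay at 34.1 or above in OVT73 and at 16.0 or below in control libraries, and no gene passed the adjusted test.

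The pathway lists were described by their counts, beside all genes tested, of which 48.1% had a fold change above 0 and the median log2 fold change was -0.01. None of their genes passed the adjusted test. PVALB, the only calcium buffer gene abundant enough to test, was at 26.7, 22.6 and 10.0 normalised CPM in OVT73 and at 44.6, 10.5, 21.8 and 20.3 in control libraries. The log2 fold change was -0.30 (SE 0.424) and the groups overlapped widely (exact permutation p = 0.8286). Its sign rested on control library 1, without which the PVALB log2 fold change was 0.21. Of 8 fast-spiking channel genes tested, 5 were above 0 and 3 below, with KCNC2 at 991 ± 96.7 and 1008 ± 177 normalised CPM (n = 3 and 4). All 3 perineuronal net genes were below 0 (median -0.22), with overlap of the groups for each. PTPRZ1 was at 48.1, 59.9 and 51.6 in OVT73 and at 160.5, 15.7, 34.0 and 47.9 in control libraries. Its sign thus rested on control library 1, as the other control libraries lay below every OVT73 library. TNR differed little, with means of 96.1 ± 10.8 and 99.1 ± 26.2 (SD, n = 3 and 4), and control library 1 at 117 was among its higher values.

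Among genes of transmission, 1 of 4 GABA synthesis and transport genes, 6 of 10 GABA-A subunits and 11 of 16 ionotropic glutamate receptor genes were above 0, with medians of -0.05, 0.09 and 0.10. GRIA4, the most abundant of these, was at 12335, 13638 and 10831 normalised CPM in OVT73 and at 11977, 11999, 9879 and 9272 in control libraries, which overlapped. GRIK1, a kainate receptor gene, was at 258, 271 and 252 in OVT73 and at 215, 128, 238 and 245 in control libraries, without overlap but with a small difference (log2 fold change 0.32, SE 0.183, exact permutation p = 0.114), which was 0.16 without control library 2. The dopamine and acetylcholine receptor lists each left 1 gene to test, DRD2 at -0.33 (SE 0.346) and CHRNB4 at 0.04 (SE 0.455). With each library left out in turn, DRD2 ranged from -0.56 to -0.12 and CHRNB4 from -0.43 to 0.40.

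All 6 trophic and neuregulin genes tested had fold changes above 0, with a median of 0.20, and 8 of 12 interneuron transcription factors did, with a median of 0.19. KITLG, NRG1 and ZEB2 are named for their lack of overlap, which 5.45% of all genes tested also showed. KITLG was the least abundant of the 6 trophic and neuregulin genes, and the groups overlapped for NRG2, NRG3, NTRK3 and ERBB4. KITLG, the ligand of KIT, was at 20.7, 17.7 and 33.0 normalised CPM in OVT73 and at 5.94, 10.5, 7.28 and 8.71 in control libraries. edgeR gave a log2 fold change of 1.53 (SE 0.409) and an adjusted p of 0.998, on 89 UMIs in 62 nuclei. ZEB2 was at 632, 790 and 674 in OVT73 and at 480, 520, 565 and 539 in control libraries, a log2 fold change of 0.41 (SE 0.135). NRG1 was at 1208, 869 and 839 in OVT73 and at 675, 183, 713 and 755 in control libraries, where control library 2 lay far below the others. ERBB4, the receptor of NRG1, was at 15459 ± 1332 and 13573 ± 2327 (n = 3 and 4), which overlapped.

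Of 54 oxidative phosphorylation genes tested, 38 were lower and 16 higher in OVT73 (median -0.08), that is 70.4% lower against 51.9% of all genes. The list depended on single libraries: without control library 1, 22 of the 54 were lower, and without OVT73 library 2, 25 were. NDUFA4, the most abundant of them, was at 255, 118 and 145 normalised CPM in OVT73 and at 300, 193, 226 and 109 in control libraries, and the groups overlapped.

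Whether OVT73 differed from control in another way in PV/Th nuclei than in medium spiny neurons was tested by the group by class term of 1 model with the library as a block. None of 13126 genes (0%) passed in edgeR's test, and 457 (3.48%) had an unadjusted p under 0.05. ANO6 had a log2 fold change of 0.92 in PV/Th nuclei and -0.10 in medium spiny neurons, a difference of 1.06 (SE 0.278, edgeR adjusted p = 1). In medium spiny neurons alone, 0 of 14219 genes passed and 604 had an unadjusted p under 0.05, also by edgeR.

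Human huntingtin reads were few in the members. The deposited annotation holds an added feature named HTT beside the sheep gene. It had 12, 0 and 1 UMIs in PV/Th nuclei of OVT73 libraries 1 to 3, in 10, 0 and 1 nuclei, and 0, 0, 0 and 2 UMIs in control libraries 1 to 4. In medium spiny neurons the same feature had 267, 45 and 16 UMIs in OVT73 and 0, 0, 1 and 2 UMIs in control libraries. The OVT73 sums held 44286698, 27269562 and 16663953 UMIs in medium spiny neurons but 1542573, 1114498 and 724978 in PV/Th nuclei. The raw counts thus do not show a lower level in PV/Th nuclei. OVT73 library 2 had no such UMI among its 69 PV/Th nuclei. With 2 UMIs in control library 4, the PV/Th counts in OVT73 libraries 2 and 3 were at the level of the controls. The sheep HTT gene was at 116, 137 and 121 CPM in OVT73 and at 120, 99.9, 103 and 149 CPM in control libraries, with overlap.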

How the data were processed

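The authors made droplet-based single-nucleus libraries and deposited raw UMI counts per barcode and gene (26479 features), made with Cell Ranger 7.0.0 and STAR 2.7.2a on the sheep genome Oar_rambouillet_v1.0 with Ensembl annotation, filtered for cells but not split by sheep. Everything else was computed here from these counts. The genetic assignment of nuclei to sheep and its doublet calls were not used here and no doublet caller was run; 5 members met the cholinergic rule as well. Quality limits for the denominator were 200 to 7500 genes and at most 5% mitochondrial UMIs.

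Counts were summed per library. OVT73 was tested against control with edgeR 4.0.16 in R 4.3.3 (filterByExpr, TMM factors, robust quasi-likelihood fit, Benjamini-Hochberg over all genes tested, threshold 0.05). Single values were compared by exact permutation of the 7 libraries (scipy 1.17.1). DESeq2 1.42.0 was an alternative. Clusters came from 2000 variable genes, 10 principal components, 15 neighbours and Leiden resolution 0.6 (scanpy 1.11.5, leidenalg 0.10.2). Thinning to 4000 UMIs used 1 fixed seed. The fits were also run on counts simulated with the same dispersion for every gene. No result given here rests on that run.

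The members, gene lists and tests were chosen with earlier results of these data known. Named genes were the rule and list genes, the 8 genes per direction with the smallest p, no overlap and a mean of 20 CPM or more, the 20 genes of 50 CPM or more with the highest smallest ratio to the other gates, and the genes called in the PVALB split. Genes of the OVT73 comparison that passed under an alternative, cluster-leading genes and marker pairs were chosen after their values were seen. The list genes GRIK1, KITLG, NRG1 and ZEB2 were likewise singled out for their lack of overlap, after their values were seen. Gene symbols follow the deposited files. SCN1A, NCAN, DRD1, CHRNA7, NTRK2 and MBP were not analysed here, nor were 3 oxidative phosphorylation symbols that stand on several identifiers. Some items are not reported here.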

Additional observations from a re-analysis of the deposited data

Results flagged for a closer look

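In 52 groups of 4 control libraries, 4 had a highest or lowest library separated from the next by more than Dixon's 95% critical value for that number of libraries, where chance gives about 1 in 20. Control library 3 had the lowest median depth of its PV/Th nuclei, 12022 UMIs, with the other control libraries between 14323 and 14520 UMIs. Control library 3 also had the lowest ANKFN1 level, 38.8 normalised CPM, where the others lay between 106 and 112. Control library 2 had the highest TAFA1 level, 86.3 normalised CPM, and the lowest NRG1 level, 183 normalised CPM. In control library 2, PV/Th nuclei numbered 25, the fewest of any library.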

How the results depend on the processing

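Alternatives were tried 1 at a time. The difference in the share of nuclei between OVT73 and control libraries (0.195 percentage points) reversed to -0.00922 as a share of barcodes with GAD1 or GAD2 UMIs, ranged from 0.0720 to 0.313 with each library left out and was 0.0657 with thinned nuclei. The difference per 100 medium spiny neurons (-0.14) reversed to 0.175 with pooled libraries only and to 0.229 at 8000 or more UMIs, and ranged from -0.408 to 0.0466 with each library left out, the last without control library 1. For OVT73 against control, where 0 genes passed, 10 passed with no filter on low counts (6 higher, 4 lower), 4 with equal numbers of nuclei and 0 to 1 with each library left out. ANKFN1, CCDC178, TRPC4, FOXP2, ADAMTS3 and RGS2 were among the 10, with 3 features without a symbol and HS3ST2, a gene of the rule whose passing is no test. ZNF423, SNTG1, TRPC5 and ZNF521 were the 4. The single genes were MEIS2 without control library 1, TRPC4 without control library 2 and an unnamed feature without control library 4. Without TMM factors, 65 genes were higher and 286 lower at an unadjusted p under 0.05, against 117 and 191 with them. For the class difference, 8 genes passed with no filter (4 higher, 4 lower) and 0 to 1 with each library left out, among them FOXP2 without OVT73 library 3 and MEIS2 without control library 1. The PVALB split gave 34 genes with no filter, 1 with no library block, 85 when split at 2 UMIs as deposited (11 higher, 74 lower) and 4 to 7 with each library left out. The split at 2 UMIs rested on OVT73 library 1 and control library 1 alone, with 10 and 6 nuclei on the PVALB side. Its nuclei were not thinned to equal depth. In 54 other comparisons of the main values with an alternative, differences kept their direction and did not pass, although their size moved, counts of genes stayed within 1.5 times and marker levels within 1 SD. These alternatives were chosen after seeing the data: leaving out nuclei with 3 or more UMIs of MOG and MOBP, keeping clusters 1, 2, 3 and 6, and leaving out cluster 3. In each, 0 genes passed. The planned splits on TH and TAC3 were not run, since no library had 5 nuclei with either after thinning to 4000 UMIs. No paired analysis was possible because replicate numbers follow only the accession order. With 25 to 76 nuclei per library, genes of few UMIs were measured with large counting error, and 3 against 4 libraries limits the exact test to p = 0.0286. The causes of these changes were not tested.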

Other observations

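Some genes that passed only under an alternative setting had clear values by library. TRPC4, a cation channel gene, was at 140, 117 and 138 normalised CPM in PV/Th nuclei of OVT73 libraries 1 to 3 and at 31.2, 115, 55.8 and 37.7 in control libraries 1 to 4, a log2 fold change of 1.22, without overlap although OVT73 library 2 and control library 2 lay next to each other. MEIS2, a homeobox gene, was at 102, 80.6 and 61.6 in OVT73 and at 84.7, 7.84, 9.70 and 18.9 in control libraries, where control library 1 lay within the OVT73 range. Both were chosen after their values were seen.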
